A study of Homo sapiens with 27 samples.

Results

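The numbered zinc finger genes of chromosome 19 were described in 2 human breast cancer cell lines, MM134 and SUM44, and in variants of both that grow without estrogen. They are the 249 protein-coding genes of the deposited count table whose symbol is ZNF followed by a number and whose GENCODE gene lies on chromosome 19, among 60619 genes in the table. Another 265 numbered ZNF genes lie on other chromosomes and 1205 other protein-coding genes lie on chromosome 19, and both served for comparison. Of the 249 genes, 3 are read-through genes that join neighbours. Between 242 and 246 of them passed the filter on low counts, depending on the comparison, and no test was made of the rest.

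MM134 (MDA-MB-134VI) and SUM44 are estrogen receptor-positive cell lines of invasive lobular breast carcinoma. The MM134 parental group and the SUM44F and SUM44PE parental groups had been deprived of hormones for 3 days, and SUM44F was derived from SUM44PE by culture in another medium. Long-term estrogen-deprived (LTED) variants were grown out and kept in charcoal-stripped serum: LTED-A, -B, -D and -E from MM134, and LTED-A and -B from SUM44F. Each of the 9 groups has 3 libraries from wells seeded in triplicate, so p-values measure the spread between wells of 1 culture, and each variant is 1 derivation.

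Most genes of this kind encode proteins with a tandem row of C2H2 zinc fingers, each held by 2 cysteines and 2 histidines, that read DNA. Many also carry a KRAB domain, which binds the corepressor KAP1 (TRIM28) and through it SETDB1 and HP1 proteins, and many act on transposable elements. They arose largely by tandem duplication, and chromosome 19 holds the largest clusters of them in the human genome.

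Along the chromosome the genes formed 9 clusters, taken as at least 5 genes with no gap over 1 Mb between starts, and 11 genes stood outside them. The clusters are named here by their first and last genes. Those of the short arm are ZNF554 to ZNF77 (5 genes), ZNF557 to ZNF846 (16), ZNF653 to ZNF791 (26) and ZNF101 to ZNF254 (37). Those of the long arm are ZNF302 to ZNF792 (5), ZNF565 to ZNF573 (26), ZNF575 to ZNF296 (24), ZNF175 to ZNF331 (40) and ZNF628 to ZNF446 (59). In translated coding sequences of GENCODE v44, available for 248 genes, the genes held a median of 12 fingers, from 0 to 36 in ZNF208. A KRAB A pattern was first found in 174 of the 248. That pattern missed most of the ZNF575 to ZNF296 cluster, with 2 of 24 genes, and was widened by 1 residue after these counts were seen. The wider pattern was found in 191, and all 17 added genes lay in that cluster. Absence of the pattern does not show absence of the domain. It was found in 32 of 37 genes of ZNF101 to ZNF254, 39 of 40 of ZNF175 to ZNF331 and 38 of 59 of ZNF628 to ZNF446, for which both patterns gave the same counts. Median fingers per gene ran from 9 in ZNF557 to ZNF846 to 13 in several clusters.

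The repeat that these genes share is shown in the linker and first linked finger of 4 genes whose levels changed in the variants, with the codons of the 2 cysteines and 2 histidines in capitals. All were read from the hg38 plus strand within coding sequence: ZNF431 at chr19:21183066-21183149, ZNF714 at chr19:21117082-21117165, ZNF30 at chr19:34943729-34943812 and ZNF331 at chr19:53577020-53577103.
ZNF431: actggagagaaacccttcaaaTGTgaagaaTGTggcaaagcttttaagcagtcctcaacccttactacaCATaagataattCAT
ZNF714: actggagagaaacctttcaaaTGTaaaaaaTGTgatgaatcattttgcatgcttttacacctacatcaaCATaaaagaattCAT
ZNF30: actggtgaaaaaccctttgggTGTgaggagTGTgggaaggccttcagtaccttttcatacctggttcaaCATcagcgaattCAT
ZNF331: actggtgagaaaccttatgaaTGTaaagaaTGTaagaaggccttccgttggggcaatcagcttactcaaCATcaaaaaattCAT
The coding sequences of the neighbours ZNF431 and ZNF714 were 92.0% identical over their aligned bases. Those of ZNF208 (3840 bases) and ZNF676 (1860 bases) were 94.9% identical over 1860 aligned bases, so much of ZNF208 was not aligned. Of the 31-base words in a gene's transcripts, a median of 88.8% occurred in no other gene, and 13 genes were under 50%. The lowest was the read-through gene ZNF625-ZNF20, at 1.53%. How the reads of near-identical copies were divided depends on the authors' estimate, so levels of genes with many shared words are less certain.

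The libraries held 28583600 to 134882000 counts (median 44018400), and the median ZNF gene had 400 to 1696 counts per library. For SUM44 LTED-A, the spread between replicates 2 and 3 was below sampling noise (chi-square per degree of freedom 0.312, against 2.35 to 58.3 in the other 26 pairs) and they were counted as 1 sample. Replicate 1 of SUM44 LTED-A and replicate 3 of SUM44F stood farthest from their groups, and counts without them are given with the results. The 8 luminal markers, among them KRT8, GATA3 and ESR1, were at 81.0 CPM or more in every group, where CPM are library-size-scaled counts after TMM normalization. Of 5 immune markers, 3 had means under 1 CPM in every group, and LYZ reached 9.75 CPM in MM134 LTED-A. PTPRC was at 0.332 to 2.60 CPM in the SUM44F libraries (mean 1.12), with means of at most 0.287 CPM in the other groups. CD14, of low mean, ran from 0.0445 to 1.82 CPM in the SUM44F libraries. The 5 fibroblast and endothelial markers summed to 271 CPM in SUM44F replicate 1, to 39.2 and 32.3 CPM in SUM44F replicates 2 and 3, and to 6.87 to 30.7 CPM in the libraries of the other groups. SUM44F replicate 1 held COL3A1 at 135 CPM and COL1A1 at 85.9 CPM, while the other SUM44F libraries held 0.703 and 0.468 CPM of COL3A1, below the 1.54 to 1.94 CPM of SUM44PE. PECAM1 was at 21.7 to 27.3 CPM in all SUM44F libraries and at most at 8.37 CPM elsewhere. Without SUM44F replicate 1, the counts of ZNF genes called were 37 in SUM44PE against SUM44F, 86 in MM134 against SUM44F, 10 and 18 in SUM44 LTED-A and -B and 32 in the interaction, beside 43, 92, 20, 23 and 34 with it. The part of PECAM1 and the other markers in the SUM44 results was not tested.

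The median ZNF gene was at 16.7 to 18.4 CPM in the MM134 groups and at 11.2 to 15.4 CPM in the SUM44 groups. In every group, 226 to 237 of the 249 genes reached 1 CPM. Per kilobase of exon, the highest mean over the 9 groups was that of ZNF91, a repressor of SVA elements, at 33.7 CPM per kb. It was followed by ZNF146 at 21.9, ZNF121 at 19.5, ZNF460 at 16.3 and ZNF428 at 13.3 CPM per kb. The order differed between groups: ZNF460 was above ZNF91 in SUM44 LTED-A (26.7 against 22.3 CPM per kb), and ZNF146, ZNF121 and ZNF460 were above it in SUM44 LTED-B (23.2, 22.1 and 21.8 against 15.8 CPM per kb). In SUM44F, ZNF91 and ZNF146 both stood at 19.1 CPM per kb. Between groups ZNF91 ranged from 15.8 CPM per kb in SUM44 LTED-B to 59.5 in MM134 LTED-A. Its log2 fold changes were 0.50 ± 0.035, 0.32 ± 0.035, -0.43 ± 0.035 and -0.014 ± 0.035 in MM134 LTED-A, -B, -D and -E and 0.22 ± 0.11 and -0.28 ± 0.10 in SUM44 LTED-A and -B, and it was not DE in any of them.

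A difference that followed position along the chromosome was found between the parental SUM44 cultures, 2 states of 1 cell line. Differentially expressed (DE) genes had a fold change above 1.5 and an adjusted p below 0.001 in edgeR's quasi-likelihood test with Benjamini-Hochberg adjustment over all genes tested. In SUM44PE against SUM44F, 43 of 243 ZNF genes were lower and 0 were higher. Among all 27457 genes tested, 2.72% were lower and 2.85% were higher, 5.57% in all. The count of 0 stayed 0 with DESeq2 and with RLE size factors. At an adjusted p under 0.05 in edgeR, whatever the fold, 1 ZNF gene was higher and 122 were lower. An unadjusted p under 0.05, in either direction, was found for 147 of the 243 ZNF genes. It was found for 9206 of all 27457 genes and for 114 of 247 ZNF genes of other chromosomes. The median log2 fold change of all 243 ZNF genes tested was -0.30, beside -0.021 for all genes, -0.0059 for other coding genes of the chromosome and -0.081 for ZNF genes elsewhere. The count without 1 library was 26 to 37, and it was 26 without SUM44PE replicate 1 and 35 without SUM44F replicate 3.

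Of the 43 lower genes, 40 lay from 50 Mb to the end of the long arm, a boundary chosen after the values were seen. In the ZNF628 to ZNF446 cluster, 58 of 58 tested genes had a negative log2 fold change and 29 were DE, with a median of -0.59. In the ZNF175 to ZNF331 cluster, 39 of 39 were negative and 10 were DE, with a median of -0.46. The other 7 clusters had medians between -0.28 and -0.048, with 2 genes DE, both in ZNF101 to ZNF254. Genes of other families in these stretches had medians of -0.49 over 31 neighbours, with 5 DE, and -0.51 over 8, with 1 DE. From 50 Mb on, 98 of 98 ZNF genes (median -0.55) and 105 of 119 other genes (median -0.41) were negative. Of the genes tested there, 40.8% of ZNF genes and 12.6% of other genes (15) were DE and lower. Before 50 Mb, the medians were -0.18 over 145 ZNF genes and 0.030 over 822 others. In windows of 2 Mb, the other genes went from 0.087 between 48 and 50 Mb to -0.39 between 50 and 52 Mb.

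The shift was present in each library. Relative to the SUM44F mean of each gene, on the log2(CPM + 0.5) scale, the median over 59 ZNF628 to ZNF446 genes was -0.61 to -0.53 in the 3 SUM44PE libraries and -0.037 to 0.036 in the 3 SUM44F libraries. The SUM44 LTED libraries, derived from SUM44F, lay between -0.0080 and 0.13. The SUM44PE libraries lay below all other SUM44 libraries.

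**Figure D1:**
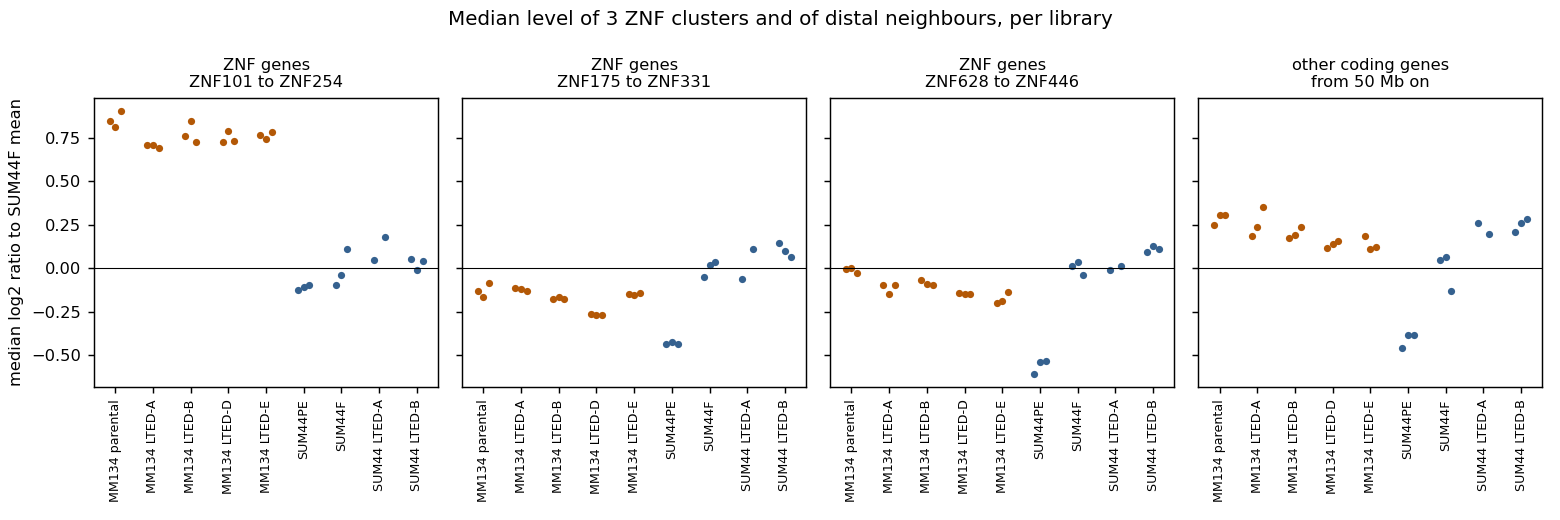
Each point is 1 library, and the vertical axis is the median over genes of the log2 ratio to the SUM44F mean, computed on CPM + 0.5, for 3 ZNF clusters and for other coding genes from 50 Mb on. The SUM44PE libraries lie at -0.61 to -0.53 in ZNF628 to ZNF446 and below all other SUM44 libraries in the last 3 panels, while the MM134 libraries (orange) lie far above the SUM44 libraries (blue) in ZNF101 to ZNF254.

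ZNF211, whose product has KRAB and C2H2 domains, was among the genes with the largest falls. Its CPM were 10.03, 10.7 and 10.5 in SUM44PE and 21.4, 22.99 and 20.4 in SUM44F, and 10.7 and 11.5 in SUM44 LTED-A. SUM44PE lay below SUM44F with no overlap, and LTED-A lay near SUM44PE. SUM44 LTED-B lay between, with means of 2.28 CPM per kb in SUM44PE, 2.43 in LTED-A, 3.36 in LTED-B and 4.73 in SUM44F. The difference of SUM44PE from SUM44F was a log2 fold change of -1.06 ± 0.079 (SE; adjusted p = 8.22e-07, edgeR). ZNF606 was at 28.6, 27.99 and 29.4 CPM in SUM44PE and 51.99, 54.3 and 53.7 CPM in SUM44F (log2 fold change -0.91 ± 0.060, adjusted p = 3.29e-07, edgeR). ZNF132, at 1.24 ± 0.329 CPM (SD, n = 3) against 2.73 ± 0.266 CPM (SD, n = 3), had the lowest value of its cluster (-1.14 ± 0.19, adjusted p = 7.83e-04, edgeR), but its adjusted p rose above 0.001 when any 1 library was left out, with log2 fold changes of -1.28 to -0.93. KAP1 itself is encoded in the same stretch: TRIM28 was at 203 CPM in SUM44PE and 280.1 CPM in SUM44F, a log2 fold change of -0.47 ± 0.092 that did not pass (adjusted p = 0.00228, edgeR).

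Between the cell lines, ZNF genes were more often higher than lower in MM134. In MM134 parental against SUM44F parental cells, 71 of 246 were higher and 21 were lower. The shares among all 29608 genes tested were 19.1% and 19%, 38.1% in all. Among other coding genes of chromosome 19, 45.6% were higher, and among ZNF genes of other chromosomes, 11.6% were. The median log2 fold change was 0.31 for the ZNF genes, -0.082 for all genes, 0.62 for the other genes of the chromosome and -0.18 for ZNF genes elsewhere. The cell lines come from different patients, and cell line and genotype cannot be told apart here.

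The difference was largest in the ZNF101 to ZNF254 cluster beside the centromere, where 22 of 37 genes were higher in MM134 and 1 was lower (median 0.96). The next medians were 0.70 in ZNF302 to ZNF792 and 0.57 in ZNF653 to ZNF791. At the end of the long arm they were -0.15 in ZNF175 to ZNF331 and -0.029 in ZNF628 to ZNF446, with 3 genes higher and 8 lower in the former and 7 higher and 8 lower in the latter. Other coding genes of the chromosome also had a higher median before 50 Mb (0.66 over 879) than from there on (0.24 over 137). For ZNF genes the medians were 0.51 over 146 and -0.062 over 100. Inside ZNF101 to ZNF254 no other coding gene was tested, and 10 inside ZNF653 to ZNF791 had a median of -0.10. Inside ZNF557 to ZNF846, 43 others had a median of 0.69, beside 0.32 for its ZNF genes. In ZNF575 to ZNF296, 25 others had 0.54, beside 0.50. In ZNF565 to ZNF573, 4 others had 0.35, beside 0.48. At the end of the long arm, others had -0.64 over 8 in ZNF175 to ZNF331 and 0.24 over 36 in ZNF628 to ZNF446.

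**Figure D2:**
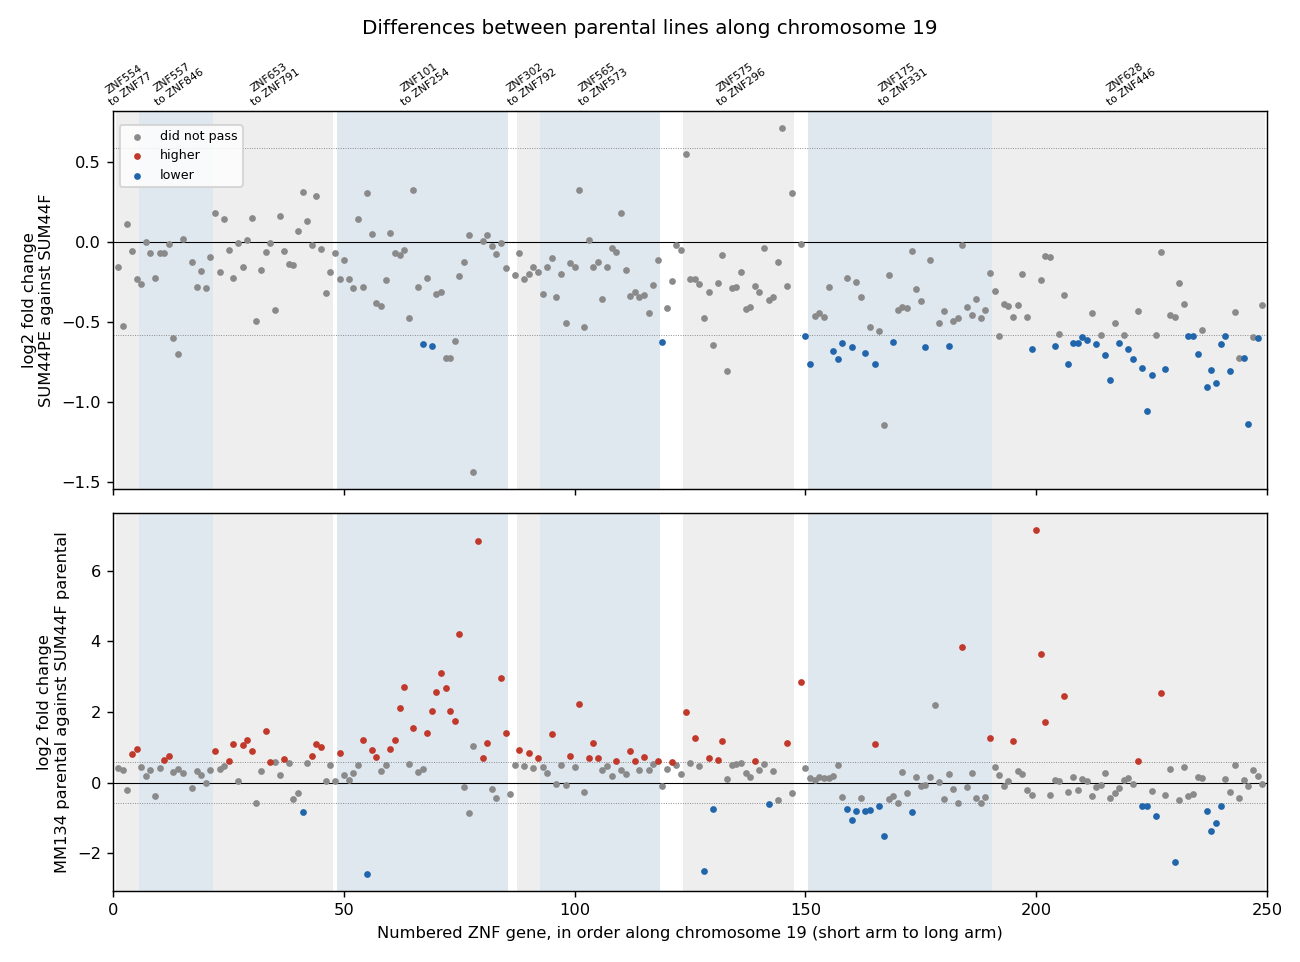
The horizontal axis gives the 249 ZNF genes in order along chromosome 19 and the vertical axis the log2 fold change, with shaded bands for the 9 clusters, dotted lines at 1.5-fold, red for genes called higher and blue for genes called lower. In SUM44PE against SUM44F (top) the 2 clusters at the right lie below 0 throughout, and in MM134 against SUM44F (bottom) the ZNF101 to ZNF254 band holds 22 genes called higher.

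ZNF582, a KRAB zinc finger gene known for promoter methylation in cervical cancer (ENSG00000018869, chr19:56375846-56393538, minus strand), separated the lines most. Its CPM were 2.72, 2.83 and 2.37 in MM134 parental cells, and no SUM44 library held more than 3 counts. All MM134 groups had means of 2.18 to 2.70 CPM, so the lines did not overlap. The fitted log2 fold change of 7.14 (adjusted p = 1.32e-13, edgeR) depends on the prior count, since SUM44F was below detection. ZNF730, in the ZNF101 to ZNF254 cluster (ENSG00000183850, chr19:23075210-23147221, plus strand), was at 20.1, 18.9 and 20.3 CPM in MM134 parental cells and 0.108, 0.215 and 0.178 CPM in SUM44F (log2 fold change 6.84 ± 0.14, adjusted p = 1.05e-22, edgeR). Its coding sequence was 88.0% identical to that of ZNF492 over their aligned bases. ZNF492 was at 18.5 ± 1.32 CPM (SD, n = 3) in MM134 parental cells and 0.983 ± 0.171 CPM (SD, n = 3) in SUM44F (log2 fold change 4.19 ± 0.13).

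The 250 bases before the RefSeq start (GRCh38.p14) of both genes are shown because both genes were near absent in SUM44F and present in MM134, with CG dinucleotides in capitals. ZNF582 was chosen by rule, ZNF730 after its values were seen. They are written in the direction of transcription, ZNF582 at chr19:56393535-56393784 on the minus strand and ZNF730 at chr19:23116775-23117024 on the plus strand, which lies within the longer GENCODE gene.
ZNF582: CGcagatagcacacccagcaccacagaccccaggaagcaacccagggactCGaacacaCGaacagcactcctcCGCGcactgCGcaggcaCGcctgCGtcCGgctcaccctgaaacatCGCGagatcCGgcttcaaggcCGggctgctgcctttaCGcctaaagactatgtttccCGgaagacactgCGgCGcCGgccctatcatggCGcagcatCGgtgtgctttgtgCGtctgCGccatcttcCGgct
ZNF730: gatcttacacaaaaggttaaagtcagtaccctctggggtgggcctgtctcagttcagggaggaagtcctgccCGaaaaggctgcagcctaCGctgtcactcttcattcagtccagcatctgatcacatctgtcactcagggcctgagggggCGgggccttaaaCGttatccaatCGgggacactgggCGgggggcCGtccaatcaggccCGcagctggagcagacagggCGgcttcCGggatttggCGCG
CG occurred 23 times before ZNF582 and 12 times before ZNF730. The median over 218 ZNF genes with a promoter in the table was 16, and over all 35116 promoters it was 11. No methylation was measured here.

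Other genes higher in MM134 were ZNF677, at 22.5 ± 0.737 CPM (SD, n = 3) and 1.53 ± 0.283 CPM (SD, n = 3) (log2 fold change 3.85 ± 0.11), and ZNF583, at 12.97 ± 0.919 CPM (SD, n = 3) and 1.05 ± 0.425 CPM (SD, n = 3) (3.63 ± 0.17). The largest differences in the other direction were in ZNF90, at 2.402, 2.35 and 1.98 CPM in MM134 parental cells and 12.8, 13.5 and 13.8 CPM in SUM44F (-2.57 ± 0.13), in ZNF404 (-2.50 ± 0.18) and in ZNF552 (-2.25 ± 0.055). ZNF90 was thus low in the cluster whose other genes were mostly high in MM134. ZNF135 (-1.38 ± 0.067) and ZNF329 (-1.14 ± 0.049) were lower in MM134 too.

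In the LTED variants, 5.33% to 9.504% of the tested ZNF genes were DE, while of all genes 20.3%, 15.9%, 17.6% and 19% were in MM134 LTED-A, -B, -D and -E and 13.7% and 17.3% in SUM44 LTED-A and -B. Other coding genes of chromosome 19 gave 11.7% to 22.6% and ZNF genes of other chromosomes 6.61% to 14.9%. In MM134, 8 rose and 12 fell of 244 in LTED-A, beside 10.5% and 9.82% of all 26061 genes tested. The counts were 9 and 4 in LTED-B (all genes 8.11% and 7.75%), 4 and 11 in LTED-D (9.63% and 7.95%), and 11 and 11 in LTED-E (8.71% and 10.3%). In SUM44, 11 rose and 9 fell of 242 in LTED-A, where the shares of all 26834 genes were 6.39% and 7.28%. In SUM44 LTED-B, 13 rose and 10 fell (all genes 8.69% and 8.57%). With RLE size factors in place of TMM, the counts were 12 higher and 5 lower in SUM44 LTED-A and 15 higher and 5 lower in LTED-B. Median log2 fold changes of the ZNF genes lay between -0.085 and 0.067. In at least 1 of the 6 variants, 60 of the 245 ZNF genes tested in either line were DE. That is 24.1% of all 249 ZNF genes, the untested among them, while 37.6% of the 28672 genes tested in either line were DE.

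The SUM44 counts moved when single libraries were left out. For LTED-A, the total of 20 went to 14 without its replicate 1, to 14 without SUM44F replicate 3, to 10 without SUM44F replicate 1 and to 9 without SUM44F replicate 2. For LTED-B, the total of 23 went to 16 without SUM44F replicate 3, to 15 without SUM44F replicate 2 or its own replicate 1, and to 13 without its own replicate 2 or 3. Over these, the genes lower numbered 2 to 5 in LTED-A (2 without its replicate 1) and 3 to 5 in LTED-B (3 without its replicate 2 or 3). With all libraries they numbered 9 and 10. The genes higher numbered 5 to 12 in LTED-A and 10 to 12 in LTED-B.

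**Figure D3:**
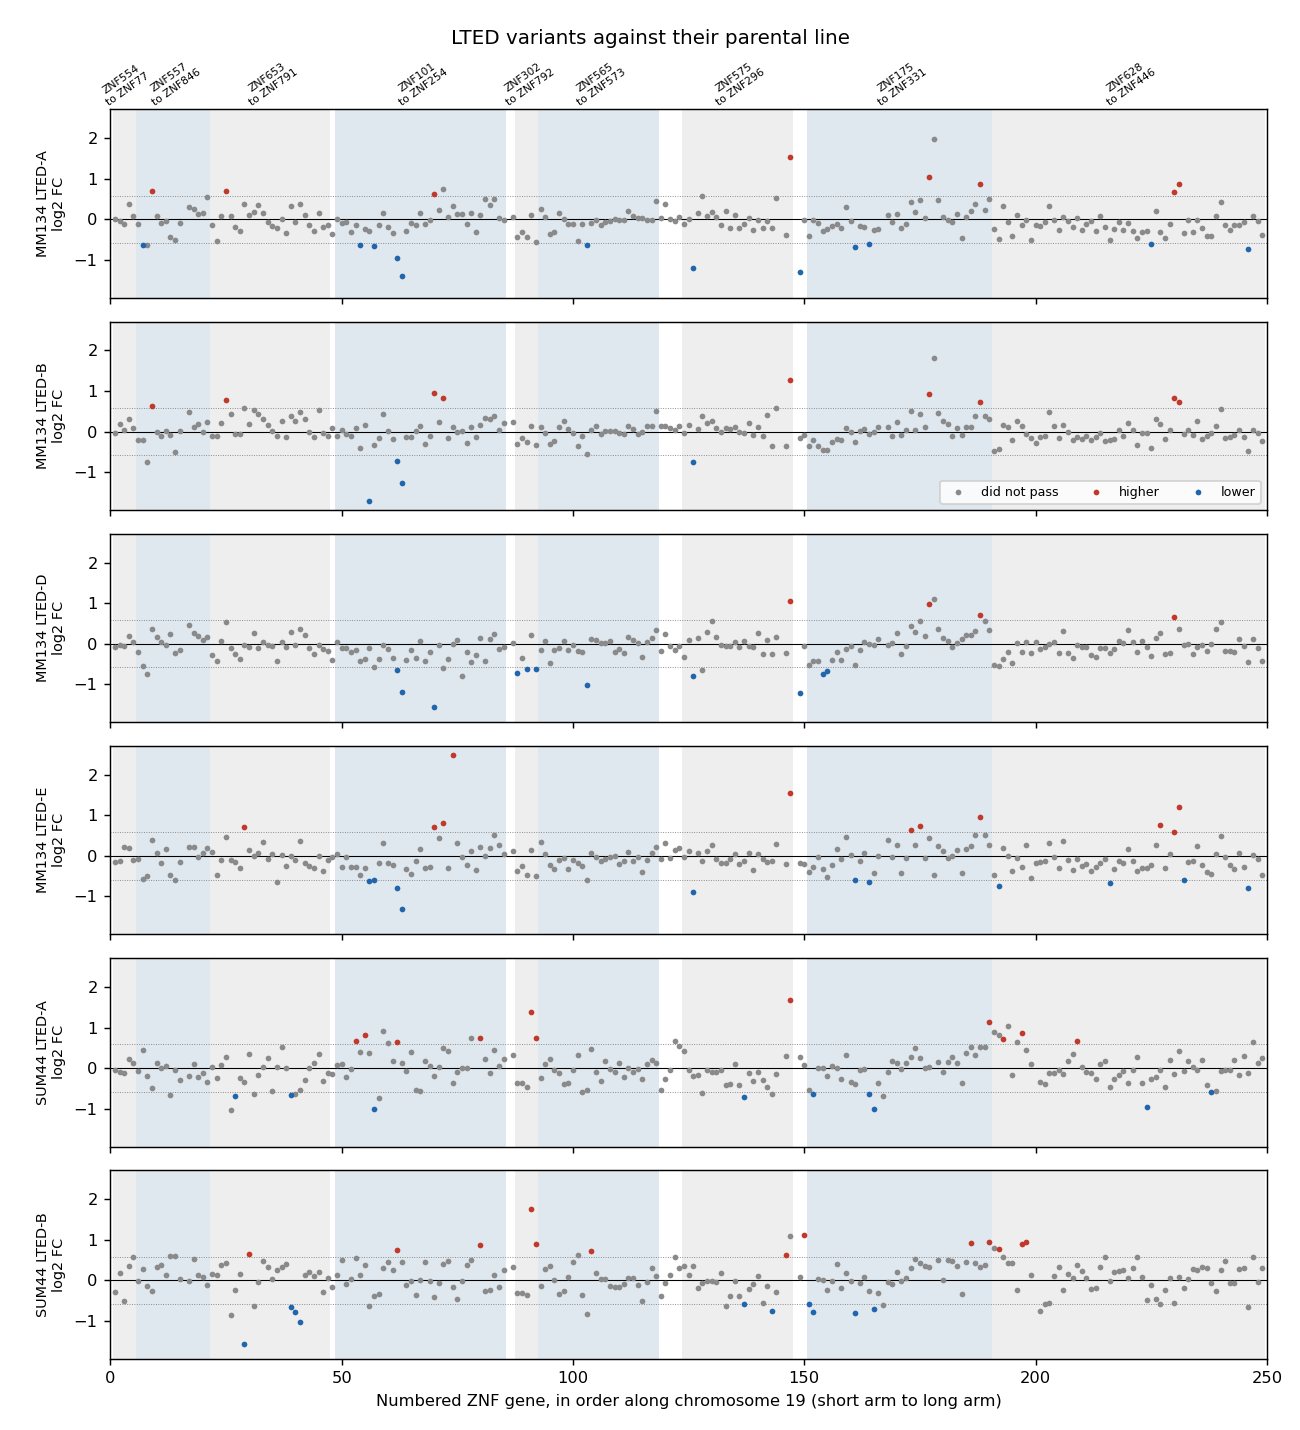
Each panel gives the log2 fold change (FC) of 1 LTED variant against its parental line for the ZNF genes in order along chromosome 19, with clusters shaded, dotted lines at 1.5-fold, red for genes called higher and blue for genes called lower. Called genes are scattered over the clusters, with 13 to 23 per variant.

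Among the cluster medians of the 6 variants, the farthest from 0 was that of the 5 genes of ZNF302 to ZNF792 in MM134 LTED-D. There the median was -0.63 and 3 genes fell, while ZNF30, of the same cluster, was at 0.21 ± 0.056. In the other MM134 variants the cluster's median was -0.43 (LTED-A), -0.27 (LTED-B) and -0.37 (LTED-E), with no gene DE. The 4 variants share the parental libraries.

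Of the 244 ZNF genes tested, 3 were lower in all 4 MM134 variants and 3 were higher in all 4. How many of all genes did so is not given here. ZNF431, of the ZNF101 to ZNF254 cluster (ENSG00000196705, chr19:21142024-21196053, plus strand), was at 236, 231 and 235 CPM in MM134 parental cells. LTED-A libraries had 91.9, 90.3 and 84.1 CPM, LTED-B libraries 98.2, 95.4 and 95.2, LTED-D libraries 104, 105 and 97.05 and LTED-E libraries 95.3, 94.2 and 94.1. Every variant library was below every parental library, with log2 fold changes of -1.40 ± 0.036, -1.28 ± 0.037, -1.18 ± 0.037 and -1.30 ± 0.036 (SE; largest adjusted p = 4.43e-15, edgeR). In SUM44F it was at 36.1 ± 2.59 CPM (SD, n = 3), and in SUM44 LTED-B at 49.9 ± 2.24 CPM (SD, n = 3) (log2 fold change 0.46 ± 0.075), under the fold minimum.

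ZNF714, its neighbour (ENSG00000160352, chr19:21082159-21125270, plus strand), went in opposite directions in the lines. Its CPM were 204, 191 and 201 in MM134 parental cells and 103, 119.7, 126 and 115 CPM on average in LTED-A, -B, -D and -E, with log2 fold changes of -0.96, -0.73, -0.64 and -0.78. In SUM44F they were 42.1, 45.3 and 50.5, in SUM44 LTED-A 66.7 and 75.8 and in SUM44 LTED-B 78.0, 75.2 and 79.0. The SUM44 rises were 0.63 ± 0.089 (adjusted p = 2.61e-04) and 0.75 ± 0.081 (adjusted p = 3.07e-05, edgeR). ZNF431 and ZNF714 are 92.0% identical over their aligned coding bases, and 83.6% and 78.7% of their words occurred in no other gene. The third gene was ZNF428 (ENSG00000131116, chr19:43607224-43619629, minus strand), which encodes a small protein with 1 finger match. It went from 38.7 ± 0.744 CPM (SD, n = 3) to 16.8 CPM in LTED-A (log2 fold change -1.21 ± 0.049), with log2 fold changes of -0.75, -0.79 and -0.89 in LTED-B, -D and -E.

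ZNF296, ZNF761 and ZNF552 rose in all 4 MM134 variants. ZNF296 (ENSG00000170684, chr19:45071500-45076478, minus strand), with 6 fingers and no KRAB A pattern, was low, at 0.858, 0.917 and 0.713 CPM in MM134 parental cells and at means of 2.46, 2.02, 1.74 and 2.45 CPM in LTED-A, -B, -D and -E. The variant libraries did not overlap the parental ones (log2 fold changes 1.54, 1.28, 1.06 and 1.56). In SUM44, ZNF296 was at 1.02, 1.17 and 0.891 CPM in SUM44F, 4.05 and 2.61 in LTED-A and 1.93, 2.299 and 2.25 in LTED-B. LTED-A passed (1.69 ± 0.22, adjusted p = 1.51e-04, edgeR) but not without its replicate 1, where the log2 fold change was 1.40 and the adjusted p = 0.00115. LTED-B did not pass (1.08 ± 0.21, adjusted p = 0.00151). ZNF761 (ENSG00000160336, chr19:53431984-53461862, plus strand) went from 24.1 ± 0.463 CPM (SD, n = 3) to means of 39.04 to 46.5 CPM, and ZNF552 from 8.93 ± 0.515 CPM (SD, n = 3) to means of 13.4 to 15.8 CPM. ZNF888, in the same cluster as ZNF761, rose in LTED-A, -B and -D (log2 fold changes 1.04, 0.93 and 0.97), and 67.2% of its words were unique.

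Other changes passed the threshold in only some of the MM134 variants, and differences between variants were not tested. ZNF208, with 36 finger matches (ENSG00000160321, chr19:21932958-22010949, minus strand), was at 9.32, 9.82 and 9.82 CPM in MM134 parental cells, rose to 15.04, 18.6 and 15.7 CPM in LTED-A, -B and -E, and fell to 2.94, 3.31 and 3.46 CPM in LTED-D (log2 fold change -1.55 ± 0.071). It was the 1 ZNF gene DE in both directions among the MM134 variants. ZNF98 was at 3.01, 3.41 and 3.87 CPM in LTED-E and 0.658, 0.648 and 0.518 CPM in parental cells (2.50 ± 0.18), while LTED-A, -B and -D lay at log2 fold changes of 0.34, 0.12 and -0.0061, and 50.1% of its words were unique. ZNF486 was at 6.56 ± 0.594 CPM (SD, n = 3) in LTED-B, against 21.7 ± 0.685 CPM (SD, n = 3) in parental cells (-1.72 ± 0.061), and fell less in LTED-E (-0.61 ± 0.056). ZNF114 fell in LTED-A and LTED-D (-1.31 ± 0.10 and -1.22 ± 0.11), and was at -0.15 ± 0.10 and -0.18 ± 0.10 in LTED-B and -E. ZNF587B rose in LTED-A, -B and -E, to 26.4 CPM in LTED-E from 11.5 CPM (1.21 ± 0.050).

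**Figure D4:**
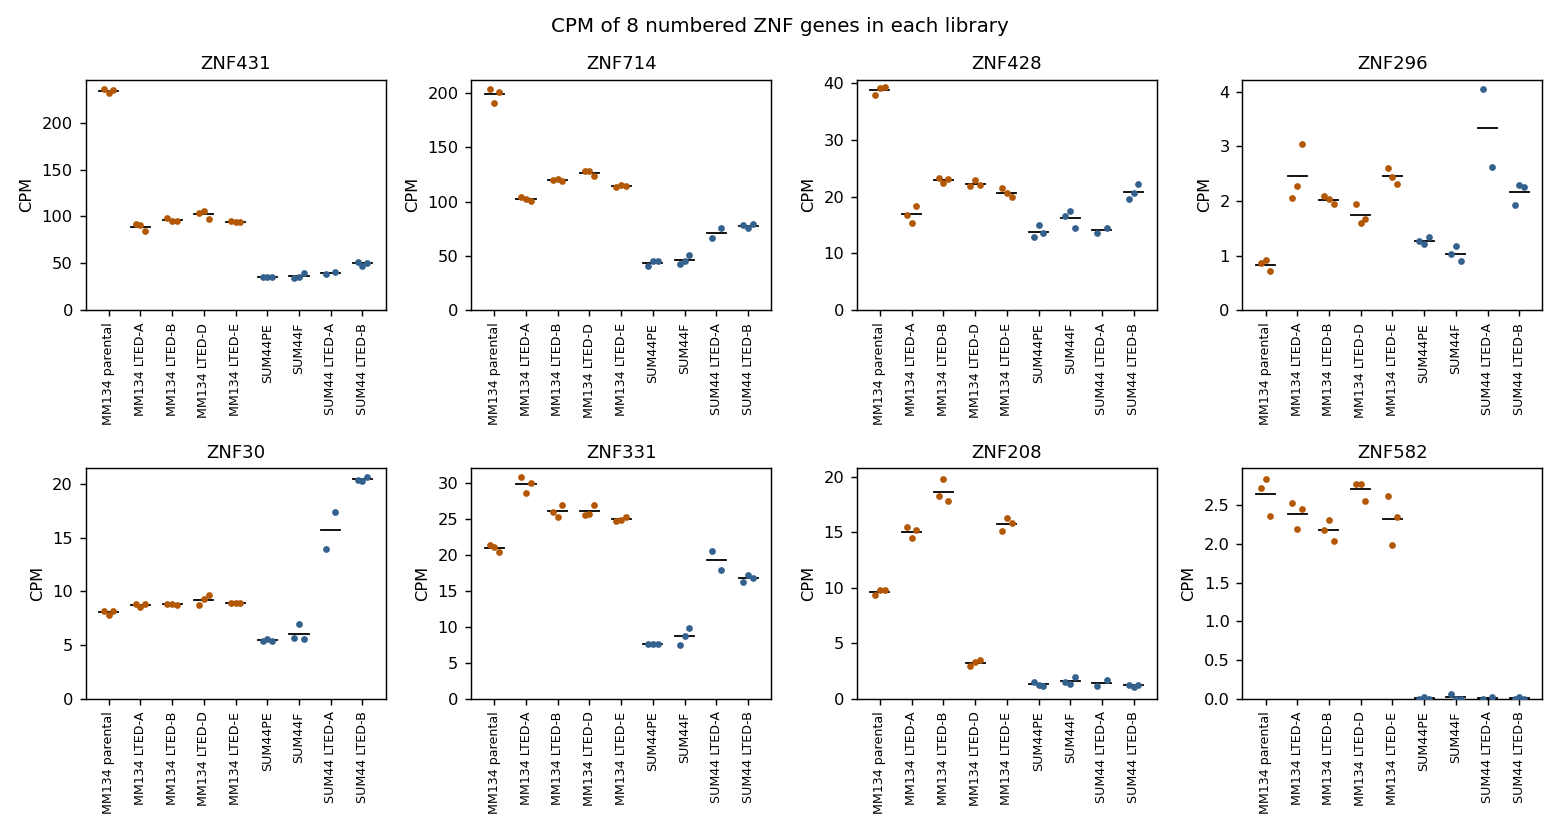
Each point is the CPM of 1 library and each short line the group mean, for 8 ZNF genes, picked after their values were seen, in the 9 groups (MM134 orange, SUM44 blue, both on a linear axis from 0). ZNF431, ZNF714 and ZNF428 are lower in every MM134 variant library than in the parental ones, ZNF30 and ZNF331 are higher in both SUM44 variants than in SUM44F, and ZNF582 is near 0 in SUM44.

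Of the 242 ZNF genes tested, 6 were higher in both SUM44 variants and 4 were lower in both. How many of all genes did so is not given here. ZNF30 (ENSG00000168661, chr19:34926903-34945170, plus strand), with 16 finger matches, was at 5.62, 6.93 and 5.59 CPM in SUM44F, 13.96 and 17.4 in LTED-A and 20.4, 20.2 and 20.7 in LTED-B. Its groups did not overlap, with log2 fold changes of 1.38 ± 0.13 (adjusted p = 1.13e-05) and 1.76 ± 0.12 (adjusted p = 8.89e-07, edgeR). ZNF792, next to ZNF30 on the opposite strand, went from 6.32 ± 0.649 CPM (SD, n = 3) to 10.5 and 11.8 CPM (0.73 ± 0.12 and 0.90 ± 0.11). The other 3 genes of their cluster had negative log2 fold changes in both variants. ZNF331, an imprinted gene (ENSG00000130844, chr19:53519527-53580269, plus strand), was at 7.399, 8.67 and 9.88 CPM in SUM44F, 20.6 and 17.9 in LTED-A and 16.2, 17.3 and 16.8 in LTED-B (1.15 ± 0.12 and 0.95 ± 0.11). ZNF581 rose by 0.87 and 0.90, ZNF724 by 0.73 and 0.86, and ZNF714 as given with MM134. Of the words of ZNF724, 39.2% were unique, so it is one of the 13 genes under 50%.

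The 4 genes lower in both SUM44 variants were ZNF880, ZNF44, ZNF577 and ZNF225. ZNF880 was at 10.8, 13.2 and 13.8 CPM in SUM44F, 5.96 and 6.45 in LTED-A and 7.35, 8.48 and 7.502 in LTED-B (-1.02 ± 0.14 and -0.70 ± 0.12), and its LTED-A call was lost without SUM44F replicate 2, or LTED-A replicate 1 or 2, the latter being the mean that stands for replicates 2 and 3. ZNF44, at 29.3 ± 0.498 CPM (SD, n = 3) in SUM44F, had log2 fold changes of -0.67 and -0.65. ZNF577 changed by -0.64 and -0.77, and ZNF225 by -0.70 and -0.59.

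Changes past the threshold in 1 SUM44 variant were also found. ZNF69 was at 4.75, 4.88 and 5.10 CPM in SUM44F and 1.72, 1.53 and 1.704 in LTED-B (-1.57 ± 0.13), and at -0.35 ± 0.13 in LTED-A. ZNF473, known for a role in histone mRNA processing, rose in LTED-B, from 26.3 ± 1.93 CPM (SD, n = 3) to 57.6 ± 2.29 CPM (SD, n = 3) (1.13 ± 0.075), and was at 0.070 ± 0.084 in LTED-A. ZNF787 rose (0.96 ± 0.10), and ZNF442 (-1.03 ± 0.13) and ZNF836 (-0.82 ± 0.10) fell in LTED-B. ZNF737 (-1.02 ± 0.094) and ZNF211 (-0.96 ± 0.10) fell in LTED-A.

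The partners of KRAB zinc finger proteins were followed with a list of 25 genes, which also holds ZFP57, itself a KRAB zinc finger gene. In MM134 LTED-A, 3 of 24 tested fell, beside 9.82% of all genes: UHRF1 (log2 fold change -0.87 ± 0.032), the HP1 gene CBX5 (-0.73 ± 0.040) and the HP1 gene CBX3 (-0.65 ± 0.029). In LTED-B, UHRF1 (-0.71 ± 0.032) and CBX3 (-0.61 ± 0.029) fell, beside 7.75% of all genes, and in LTED-D and LTED-E none passed. The median of the list was -0.30 in LTED-A, -0.24 in LTED-B, -0.10 in LTED-D and -0.15 in LTED-E, beside -0.028 to 0.021 for all genes. Of 25 tested in SUM44, 4 rose and 1 fell in LTED-A, beside 6.39% and 7.28% of all genes, and 4 rose and 2 fell in LTED-B, beside 8.69% and 8.57%. DNMT1 (0.82 ± 0.079 and 0.70 ± 0.072) and UHRF1 (0.98 ± 0.069 and 1.21 ± 0.064), which maintain DNA methylation, rose in both variants. MPHOSPH8, a subunit of the HUSH complex, rose in LTED-A (1.45 ± 0.074), with CBX5 (0.71 ± 0.12). HDAC1 (0.91 ± 0.10) and SUMO2 (0.71 ± 0.089) rose and TRIM24 (-0.90 ± 0.062) fell in LTED-B. ZFP57, at 1.29 CPM in SUM44F and 0.01 CPM in both variants, fell in both. TRIM28 was at 271 to 311 CPM in the MM134 groups, 280.1 CPM in SUM44F and 354 and 416 CPM in SUM44 LTED-A and -B, and no LTED comparison called it. Between SUM44PE and SUM44F no gene of the list passed, and between MM134 and SUM44F 9 were higher and 4 lower in MM134 of 25 tested, beside 19.1% and 19% of all genes.

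The variants of both lines were compared with the interaction. It subtracts the average log2 fold change of 2 SUM44 variants from that of 4 MM134 variants. Its p-values measure the spread between wells, so it compares these variants and not the cell lines in general. It was positive and DE in 10 ZNF genes and negative and DE in 24 of 246, beside 10.9% and 10.1% of all 29608 genes tested (21% in all). The 3 lowest values were those of ZNF431 (-1.59 ± 0.058), ZNF714 (-1.47 ± 0.065) and ZNF30 (-1.42 ± 0.10). ZNF431 and ZNF714 fell in the MM134 variants. ZNF30 did not fall there, at 2.94 CPM per kb in MM134 parental cells and 3.18 to 3.35 in the MM134 variants, and it rose in both SUM44 variants.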

How the data were processed

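RNA-Seq of total RNA was made with a stranded kit from 27 wells in 9 groups. Per the labels and the study's methods, the authors used Salmon 0.6.0 with hg38 and Ensembl release 82, and deposited estimated counts (expected counts) per gene for 60619 genes. The strand setting is not given in the sources used here. Symbols, positions and coding sequences came from GENCODE v44 by Ensembl ID (56434 IDs matched), so gene models may differ from those counted. Promoters came from RefSeq (GRCh38.p14). No protein table was used, and fingers and KRAB patterns were searched in translated GENCODE coding sequences.

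Counts were rounded, filtered with filterByExpr and scaled by TMM. Tests used edgeR 4.0.16 (R 4.3.3, two-sided quasi-likelihood F-test, Benjamini-Hochberg over all genes tested) in 1 fit of the MM134 groups, 1 of SUM44F and the SUM44 variants, 1 adding SUM44PE and 1 of all groups. Genes with a fold change above 1.5 and an adjusted p below 0.001 were called DE. The SE is the log2 fold change over the square root of F. Depth was 28583600 to 134882000 counts per library, and a group with at most 3 counts in every library was taken as below detection. CPM came from the fit of all groups. The procedure was tested on simulated data. Summaries used numpy 2.4.6 and pandas 2.3.3, and matplotlib 3.10.9 drew the plots.

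Genes were named by rule: the 3 largest DE changes per direction and variant, genes DE alike in all variants of a line, the 5 largest differences per direction between the lines, the 3 largest per direction between SUM44PE and SUM44F, the 5 highest per kb, and DE genes of the list of KAP1 partners and ZFP57. Named genes needed 1 CPM in a group. Members and lists were chosen with earlier results of these data known. The 50 Mb boundary, the wider KRAB pattern and the ZNF730 promoter were chosen after their values were seen. Alternatives were no filter, RLE size factors, DESeq2 1.42.0, an adjusted p under 0.05, no minimum fold, a replicate block, each library left out, SUM44 LTED-A replicates 2 and 3 kept separate, and cluster gaps of 0.5 and 2 Mb.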

Additional observations from a re-analysis of the deposited data

Results flagged for a closer look

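In 17 of the 39 ZNF genes named for a change or a difference, the average changes of MM134 and SUM44 variants differed. The difference itself was tested (interaction in edgeR's quasi-likelihood test, fold above 1.5, adjusted p below 0.001). Each variant is a single derivation, and the p-values measure the spread between wells. A difference between the cell lines beyond these variants was not tested. ZNF473 and ZNF69 passed in SUM44 LTED-B and not in LTED-A. The values subtract the average log2 fold change of SUM44 variants from that of MM134 variants. The 39 genes were chosen for changes or differences in these same libraries, so the 17 are no independent count. Among all ZNF genes tested 34 of 246 passed, and among all genes 21%. The values were negative, with the change from parental cells lower in MM134 variants than in SUM44 variants, for ZNF431 (-1.59), ZNF714 (-1.47), ZNF30 (-1.42), ZNF792 (-1.33), ZNF581 (-1.01), ZNF428 (-1), ZNF90 (-0.80), ZNF473 (-0.70), ZNF331 (-0.69), ZNF724 (-0.65) and ZNF787 (-0.65). They were positive for ZNF69 (1.37), ZNF442 (1.18), ZNF552 (1.02), ZNF44 (0.90), ZNF880 (0.67) and ZNF225 (0.59). No explanation was tested. SUM44 LTED-A entered with 2 samples.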

How the results depend on the processing

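No named gene turned in direction, and of the 300 total counts and medians under the alternatives, 249 stayed within 1.5 times, or within 1 SD of the replicates, of the values given. Of another 865 values, for counts by direction and single named genes, 812 kept their call or size, 36 counts moved and 17 calls were lost. Without a minimum fold, 91, 71, 83 and 99 genes passed in MM134 LTED-A, -B, -D and -E (20, 13, 15 and 22 with it), 162 between MM134 and SUM44F (92) and 81 in the interaction (34). At an adjusted p under 0.05, 36 passed in SUM44 LTED-A (20) and 35 in LTED-B (23). DESeq2 called 19 higher in SUM44 LTED-A (11) and 23 higher in LTED-B (13). With 1 library left out, the counts ran from 9 to 17 in SUM44 LTED-A, 13 to 18 in LTED-B and 26 to 37 in SUM44PE against SUM44F, where the lowest was without SUM44PE replicate 1. RLE size factors moved the median to 0.10 in SUM44 LTED-B and to -0.12 in the interaction. Calls that were lost under some alternative were those of ZNF132, ZNF296 in SUM44 LTED-A, ZNF442 and ZNF880. Depth limits values under 1 CPM, which rest on few counts.

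Same-numbered libraries did not pair (r from -0.446 to 0.335 over 48 pairs of deviations from group means, 14 over 0.1). With the replicate number as a block, 13 genes passed in SUM44 LTED-A (20 without it) and 17 in LTED-B (23).

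Joining clusters over gaps of up to 2 Mb merged neighbours and moved these medians. For ZNF557 to ZNF846, the median became -0.035 (MM134 LTED-D), -0.073 (MM134 LTED-E) and 0.42 (MM134 against SUM44F). For ZNF653 to ZNF791, the median became 0.025 (MM134 LTED-B) and 0.42 (MM134 against SUM44F). For ZNF302 to ZNF792, the median became -0.025 (MM134 LTED-A), -0.0029 (MM134 LTED-B), -0.12 (MM134 LTED-D), -0.11 (MM134 LTED-E), -0.041 (SUM44 LTED-A), 0.0001 (SUM44 LTED-B), 0.50 (MM134 against SUM44F) and 0.0040 (interaction). For ZNF565 to ZNF573, the median became -0.12 (MM134 LTED-D). For ZNF175 to ZNF331, the median became -0.12 (MM134 LTED-A), -0.041 (MM134 LTED-B), -0.064 (MM134 LTED-D), -0.11 (MM134 LTED-E), 0.087 (SUM44 LTED-B), -0.55 (SUM44PE against SUM44F), -0.057 (MM134 against SUM44F) and -0.13 (interaction). For ZNF628 to ZNF446, the median became -0.041 (MM134 LTED-B), -0.064 (MM134 LTED-D), -0.11 (MM134 LTED-E), -0.0086 (SUM44 LTED-A), -0.55 (SUM44PE against SUM44F) and -0.13 (interaction). Splitting at 0.5 Mb moved these. For ZNF557 to ZNF846, it became 0.079 (MM134 LTED-A) and 0.081 (MM134 LTED-E). For ZNF628 to ZNF446, it became 0.073 (SUM44 LTED-B), -0.63 (SUM44PE against SUM44F) and -0.12 (MM134 against SUM44F). By construction, other genes entered or left each cluster.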
